A study of Rattus norvegicus with 6 samples.

Results

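The genes described here encode ion channels of the cell surface and of internal membranes, with some of their partner subunits: potassium channels, voltage-gated calcium channels, TRP channels, chloride channels and exchangers, Piezo channels, and the Orai and Stim proteins of store-operated calcium entry. They were chosen by symbol alone, as the rows of the table whose symbol begins with Kcn, Cacn, Trpc, Trpm or Trpv, or with Clcn or Ano and a number, plus Piezo1, Piezo2, Orai1, Orai2, Orai3, Stim1 and Stim2. The rule took 64 of 13526 genes and used no measured value, though it was chosen with earlier results of these data known. It also took Trpc4ap, which encodes a protein that associates with the TRPC4 channel and is not a channel itself.

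The study asked how empagliflozin, an inhibitor of the renal glucose transporter SGLT2, acts on the osteogenic differentiation of vascular smooth muscle cells (VSMCs). RNA-seq was performed on primary wild-type (WT) VSMCs of the rat thoracic aorta. The 3 libraries of the OM plus EMPA group came from cells in osteogenic media (OM), which held β-GP at 10 mM and CaCl2 at 3.5 mM, with 1 μM empagliflozin for 5 days, and the 3 libraries of the OM group came from cells in the same media without the drug. The titles of the libraries abbreviate the medium as Pi, while the treatment text describes OM, and the study's own text gives a shorter time than the labels. Both groups carried the calcifying stimulus, and no cells in ordinary medium were analysed here. The sources do not say whether the replicates of a group were separate cultures or animals, and the p-values below therefore reflect only how these libraries spread, which may be a technical spread.

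Ion channels set the membrane potential and the calcium level of a smooth muscle cell. Potassium channels pull the membrane potential down and so keep the voltage-gated calcium channels shut, while chloride efflux and cation entry through TRP channels push it up. When the endoplasmic reticulum loses its calcium, Stim proteins sense the loss and open Orai channels in the plasma membrane. Contractile VSMCs carry mainly L-type calcium channels, whereas dividing VSMCs are known to express KCa3.1, the calcium-activated potassium channel encoded by Kcnn4.

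The values are TPM (transcript abundances), a level corrected for gene length and scaled to a fixed total in each library, so the depth behind a value is unknown. A gene was tested when its mean over the 6 libraries was at least 1 TPM, which kept 47 of the 64 channel genes and 12564 genes in all. Tests were made with limma on log2(TPM + 1), and a gene is said to have risen or fallen when its p-value, adjusted over the 12564 genes by the Benjamini-Hochberg method, was at most 0.05. A fold change on this scale understates the change of a gene of low level. The other 17 channel genes had values between 0.1 and 1.1 TPM in the single libraries, and the groups overlapped for each of them. No channel gene was listed at 0 in any library.

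**Figure D1:**
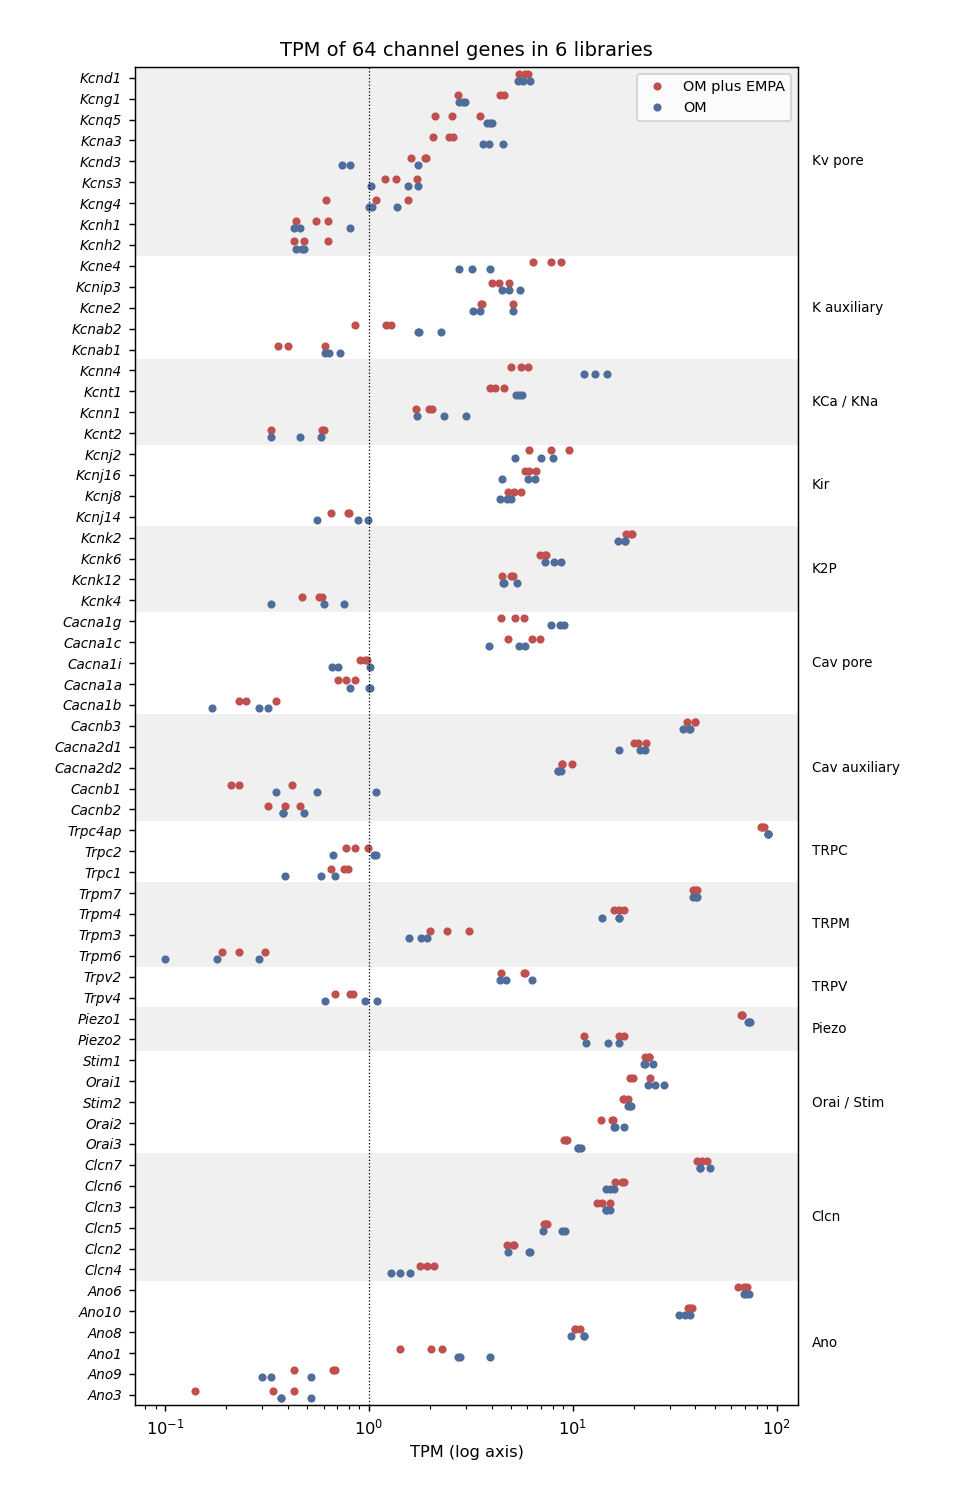
TPM of the 64 channel genes in each library on a log axis, ordered by role and, within a role, by mean level, with OM plus EMPA points (red) above OM points (blue) for each gene. The dotted line marks 1 TPM, the minimum mean for a test, and 18 genes had a mean of at least 10 TPM.

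Of the 47 tested channel genes, Kcne4 rose in the OM plus EMPA group and Kcnn4, Cacna1g and Kcna3 fell. The other 43 did not pass the test. The called genes made 8.51% of the tested channel genes, against 6.92% of all tested genes. The single gene that rose made 2.13%, against 2.06% of all genes that rose, and the 3 that fell made 6.38%, against 4.86%. These shares lie near those of all tested genes, so the count is not a result about channel genes as a group. The median log2 fold change was -0.01 over the channel genes and -0.05 over all tested genes. At an unadjusted p under 0.05 were 12 channel genes, or 25.5%, against 24.1% of all genes. The OM plus EMPA libraries all lay above the OM libraries for 6 channel genes, or 12.8%, against 7.85% of all genes, and all lay below them for 11, or 23.4%, against 22.5%. Because TPM are shares of a total, the split of calls over all genes depended on the scaling: 29.8% of the called genes rose with the deposited TPM and 50.6% after median-ratio scaling, which moved the median fold change of all genes by 0.054. The same 4 channel genes passed under both.

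**Figure D2:**
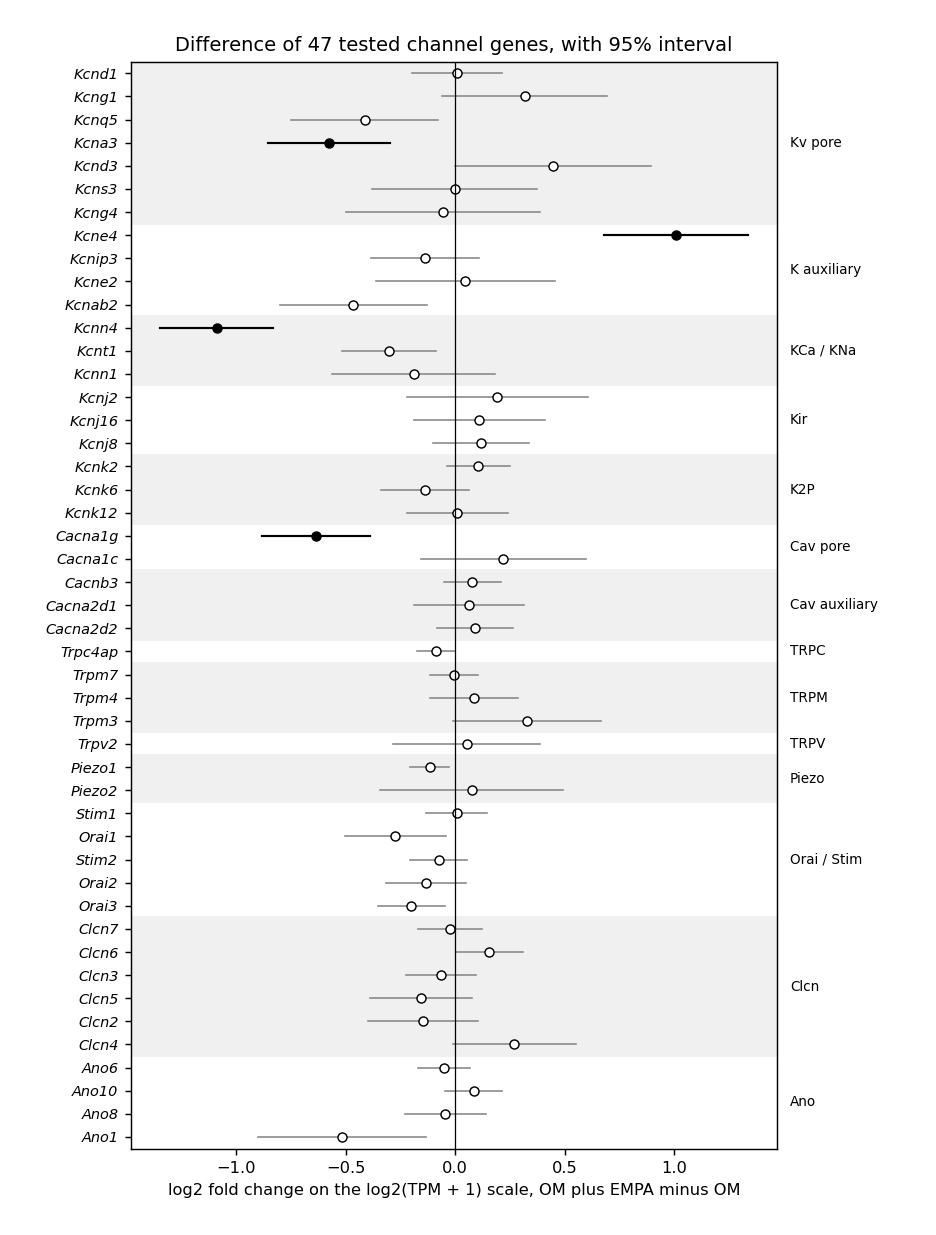
Log2 fold change, OM plus EMPA minus OM, of the 47 tested channel genes on the log2(TPM + 1) scale, with 95% intervals from limma, ordered as in the plot of levels. Filled points mark the 4 genes that passed the test, of which Kcne4 lies to the right of 0 and Kcnn4, Cacna1g and Kcna3 to the left.

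The libraries differed in ways that go with the groups. The share of TPM from the mitochondrial genome ran between 10.3% and 10.9% in the OM plus EMPA group and between 8.0% and 9.69% in the OM group. Of 9 smooth muscle markers analysed, 4 of the 8 tested rose, Acta2, Cnn1, Lmod1 and Tagln, and the summed level of the list spanned 2840 to 3348 TPM in the OM plus EMPA group against 2091 to 2539 TPM in the OM libraries. Of these calls, with single libraries left out, Cnn1 passed in 5 of 6 fits, Acta2 and Lmod1 in 2 and Tagln in 1 (limma adjusted p up to 0.0628, 0.0910, 0.0713 and 0.0989), and Acta2 and Tagln were lost in limma without the trend of the variance (0.0634 and 0.0638). Myh11 had a log2 fold change of -0.17 and overlapping groups (limma adjusted p = 0.455). Of 6 fibroblast markers, Dcn and Pdgfra fell among the 5 tested. Neither passed after median-ratio scaling (limma adjusted p = 0.0733 and 0.0930), and with single libraries left out Dcn passed in 1 of 6 fits and Pdgfra in 0 (limma adjusted p up to 0.124 and 0.151). Of the 7 alternative fits that kept all libraries, Dcn passed in 3 and Pdgfra in 3. Col1a1, with a log2 fold change of 0.23 and no overlap, and Pi16, with 0.26, did not pass (limma adjusted p = 0.156 and 0.235). The sum of the list was 9956 to 10364 TPM against 10241 to 11062 TPM. Of 8 leukocyte markers only Cd68 and Cd14 were analysed, of which Cd68 fell, and their sum spanned 30.1 to 40.0 TPM in the OM plus EMPA group against 40.5 to 44.3 TPM in the OM libraries. No marker of these lists that was analysed was at 0 in all libraries, and endothelial markers were not analysed here. The part of these shifts in the results below was not tested, and in such bulk samples fewer cells of a type and less RNA per cell cannot be told apart.

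Kcnn4 was the channel gene with the smallest p-value. It encodes KCa3.1, a potassium channel that opens when calcium binds to the calmodulin it carries. Kcnn4 was measured at 5.58, 6.07 and 5.00 TPM in the OM plus EMPA libraries, against 14.74, 12.89 and 11.31 TPM in the OM libraries. Every OM library was at a level above the highest OM plus EMPA library, and the groups stood far apart. The means were 5.55 ± 0.536 TPM in the OM plus EMPA group vs. 12.98 ± 1.72 TPM in the OM group (SD, n = 3 each). Kcnn4 fell by 1.09 on the log2 scale (SE 0.11, 95% interval -1.35 to -0.83, limma with Benjamini-Hochberg adjusted p = 0.00329). The gene lies at chr1:79959070-79974340 on the + strand in the authors' table, whose build is not given. It passed the test again after each of the 6 libraries was left out.

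The other 2 tested genes of the same role group did not pass. Kcnt1, a potassium channel opened by sodium, was measured at 3.93, 4.14 and 4.63 TPM in the OM plus EMPA libraries and 5.43, 5.63 and 5.27 TPM in the OM libraries. Its groups did not overlap, and its log2 fold change was -0.30 (SE 0.093, limma adjusted p = 0.0991). Kcnn1, a small-conductance calcium-activated channel, averaged 1.91 ± 0.181 TPM vs. 2.35 ± 0.645 TPM, and its groups overlapped. Summed with the low Kcnt2, this role group came to 12.2 ± 0.346 TPM in the OM plus EMPA group vs. 21.2 ± 1.10 TPM in the OM group, a difference that came mainly from Kcnn4.

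Kcne4 was the channel gene that rose. It encodes a single-pass subunit that joins potassium channels of the Kv family and, in expression systems, reduces the current of Kv1.3, the channel of Kcna3. Kcne4 was measured at 8.75, 6.40 and 7.82 TPM in the OM plus EMPA libraries, against 3.95, 2.77 and 3.2 TPM in the OM libraries. The lowest OM plus EMPA library exceeded the highest OM library. The means were 7.66 ± 1.18 TPM in the OM plus EMPA group vs. 3.31 ± 0.597 TPM in the OM group, and the log2 fold change was 1.01 (SE 0.14, 95% interval 0.68 to 1.34, limma adjusted p = 0.00838). The table places Kcne4 at chr9:80247379-80250979 on the + strand. The call held without each library in turn.

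Kcna3 fell. Kv1.3 is a delayed rectifier best known from lymphocytes, and it is also found in dividing smooth muscle cells. Kcna3 was measured at 2.47, 2.06 and 2.58 TPM in the OM plus EMPA libraries, against 3.89, 3.64 and 4.56 TPM in the OM libraries. All OM plus EMPA values lay below all OM values, at a low level in both groups. The means were 2.37 ± 0.274 TPM vs. 4.03 ± 0.476 TPM, and Kcna3 fell by 0.58 on the log2 scale (SE 0.12, 95% interval -0.85 to -0.30, limma adjusted p = 0.0315). The table gives it at chr2:194632196-194650138 on the + strand. The call was near the threshold: it held without OM replicate 2 (limma adjusted p = 0.0485), and it was lost when any of the 3 OM plus EMPA replicates was left out (0.0750 without replicate 1, 0.101 without 2 and 0.0606 without 3) and without OM replicate 1 (0.0853) or 3 (0.102). Leukocytes are known to express Kcna3 and Kcnn4 too. Cd68, the macrophage marker that fell, was measured at 9.52, 5.10 and 7.86 TPM in the OM plus EMPA libraries against 13.59, 12.83 and 14.94 TPM in the OM libraries, and its part in both results was not tested. The Cd68 call held in 2 of 6 fits that left out a library (limma adjusted p up to 0.114) and was lost without the trend (0.0711). Cd14, the other leukocyte marker analysed, was at 20.59, 25.28 and 32.13 TPM against 26.88, 29.55 and 29.38 TPM, with overlapping groups, and did not pass (limma adjusted p = 0.542).

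**Figure D3:**
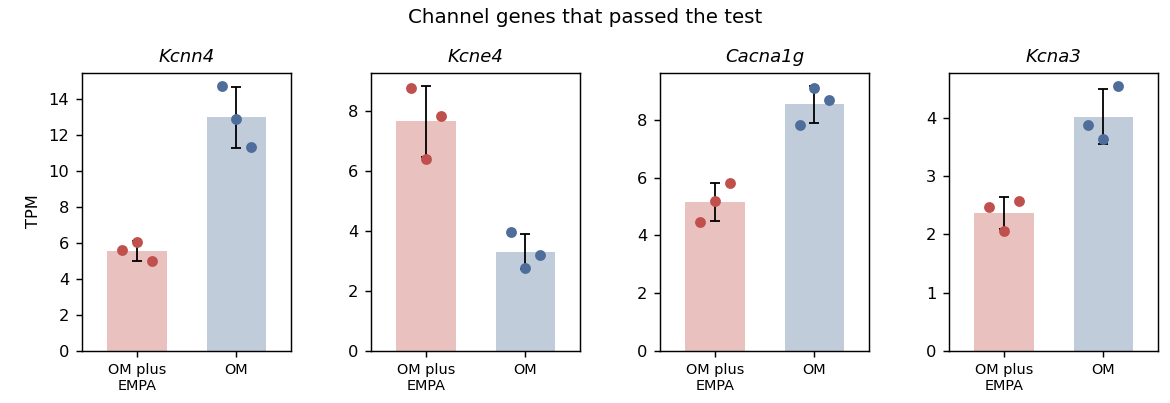
TPM of Kcnn4, Kcne4, Cacna1g and Kcna3 in each library (points), with the group mean (bar) and SD (error bar, n = 3). Kcne4 sits at 6.40 to 8.75 TPM in the OM plus EMPA group and 2.77 to 3.95 TPM in the OM group, and the other 3 genes are lower in the OM plus EMPA group with no overlap.

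Promoter sequences are shown for the channel gene pair that moved in opposite directions, Kcne4 and Kcna3, since the products of these genes can share a complex. Each is the 250 bases before the gene's start in RefSeq on build GRCr8, 5′ to 3′, at chr9:87695798-87696047 for Kcne4 and chr2:197320074-197320323 for Kcna3, both on the + strand, and these coordinates are not of the same build as those of the authors' table. Capitals mark matches to the GC box GGGCGG and the E-box CACGTG.
Kcne4 promoter: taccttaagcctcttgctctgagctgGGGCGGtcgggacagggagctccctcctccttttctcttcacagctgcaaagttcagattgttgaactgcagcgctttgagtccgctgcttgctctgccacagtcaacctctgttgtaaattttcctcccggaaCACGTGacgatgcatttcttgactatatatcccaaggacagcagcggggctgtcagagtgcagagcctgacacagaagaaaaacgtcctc
Kcna3 promoter: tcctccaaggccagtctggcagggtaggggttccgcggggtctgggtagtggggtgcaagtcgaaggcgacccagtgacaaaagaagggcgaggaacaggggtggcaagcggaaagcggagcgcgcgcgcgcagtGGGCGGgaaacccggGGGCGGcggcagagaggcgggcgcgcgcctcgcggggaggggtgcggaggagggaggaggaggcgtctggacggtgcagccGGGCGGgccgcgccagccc
RefSeq promoters matched 49 of the 64 channel genes and 2 of the 4 that passed the test; Kcnn4 and Cacna1g were not among them. The Kcna3 window held 3 GC boxes, at 19 to 14, 100 to 95 and 115 to 110 bases before the start, and was 73.6% G and C. The Kcne4 window held 1 GC box, at 224 to 219 bases, and 1 E-box, which reads the same on both strands, at 90 to 85 bases, and was 52.4% G and C. The median of all promoters was 51.2%. Of 33469 promoter windows of the same length, 30.5% held a GC box and 5.59% the E-box on either strand. The other motifs searched, without a match in these windows, were TATAAA, in 12.9% of all promoters, TGANTCA, in 6.34%, CCAAT, in 34.0%, and the CArG box, in 1.50%. The motifs were chosen after the 2 promoters had been read, and a match describes the letters only. After its E-box the Kcne4 window holds an ATG, with no stop codon in that frame up to the window's end. Whether this stretch is transcribed or coding sequence was not tested.

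Of the remaining pore-forming genes of voltage-gated potassium channels, none passed the test. Kcnq5, which encodes the Kv7.5 subunit, known from vascular smooth muscle, was measured at 2.11, 3.50 and 2.57 TPM in the OM plus EMPA libraries and 3.79, 4.03 and 3.91 TPM in the OM libraries. The groups did not overlap, and the log2 fold change was -0.41 (95% interval -0.75 to -0.08, limma adjusted p = 0.137). Kcnd3, an A-type Kv4 channel, was measured at 1.88, 1.90 and 1.62 TPM against 0.81, 1.75 and 0.74 TPM. One OM library reached the level of the OM plus EMPA libraries, and the log2 fold change was 0.45 with limma adjusted p = 0.21. Kcng1, a silent subunit that forms channels only with other Kv subunits, averaged 3.91 ± 1.02 TPM vs. 2.88 ± 0.101 TPM (log2 fold change 0.32, 95% interval -0.06 to 0.69). Kcnd1, the most abundant gene of the group, averaged 5.79 ± 0.293 TPM vs. 5.76 ± 0.419 TPM (log2 fold change 0.01, 95% interval -0.20 to 0.21).

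Among the auxiliary potassium subunits, Kcnab2, which encodes a cytosolic subunit of Kv1 channels, was measured at 1.21, 0.86 and 1.29 TPM in the OM plus EMPA libraries and 1.74, 1.77 and 2.27 TPM in the OM libraries. Its groups did not overlap, yet it missed the threshold (log2 fold change -0.47, 95% interval -0.80 to -0.13, limma adjusted p = 0.102). Kcnip3, a calcium-binding subunit of Kv4 channels, averaged 4.41 ± 0.413 TPM vs. 4.96 ± 0.498 TPM, with overlapping groups. Kcne2, a relative of Kcne4, was measured at 5.12, 3.57 and 3.60 TPM against 5.11, 3.23 and 3.53 TPM. The first library of each group was the high one, and the log2 fold change was 0.05 (95% interval -0.36 to 0.45). Kcne2 was read from an assembled locus at chr11:31295476-31530043, a far longer stretch than that of Kcne4. Overlap with other loci was examined only for channel genes that passed the test. Whether the Kcne2 value holds reads of neighbouring genes was not tested. The difference between the effects on the Kcne genes was not tested.

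Kcnk2 was the most abundant potassium channel gene in all 6 libraries. It encodes TREK-1, a background (K2P) channel that responds to stretch and fatty acids. Kcnk2 was measured at 19.29, 18.24 and 19.50 TPM in the OM plus EMPA libraries and 18.02, 18.10 and 16.67 TPM in the OM libraries. The groups were adjacent and did not overlap, and the log2 fold change was 0.11 (95% interval -0.04 to 0.25, limma adjusted p = 0.34). Kcnk6, the TWIK-2 channel, averaged 7.22 ± 0.233 TPM vs. 8.05 ± 0.723 TPM (95% interval of the log2 fold change -0.34 to 0.06).

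Of the inward rectifiers, which pass potassium more readily into the cell than out of it, none passed the test. Kcnj2, the gene of Kir2.1, was measured at 9.59, 6.13 and 7.83 TPM in the OM plus EMPA libraries and 7.97, 5.22 and 7.0 TPM in the OM libraries. The ranges overlapped widely, and the interval of the log2 fold change ran from -0.22 to 0.60. Kcnj8, which encodes Kir6.1, the pore of the ATP-sensitive channel of vascular smooth muscle, averaged 5.19 ± 0.396 TPM vs. 4.71 ± 0.287 TPM (interval -0.10 to 0.34). Kcnj16, the gene of Kir5.1, averaged 6.18 ± 0.379 TPM vs. 5.71 ± 1.07 TPM (interval -0.19 to 0.41). Counted over the 26 Kcn genes, 20 were tested, of which 1 rose, 2 fell and 17 did not pass.

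The make-up of the potassium channel transcripts is described by ratios within a library, which were chosen after the values were seen and carry no test. Ranked by TPM among the 21 pore-forming potassium channel genes, Kcnn4 stood at place 6, 4 and 7 in the OM plus EMPA libraries and at place 2 in each OM library. Kcnn4 made 6.63 ± 0.852% of their summed TPM in the OM plus EMPA group vs. 14.2 ± 1.82% in the OM group, and Kcnk2 made 22.6 ± 0.181% vs. 19.2 ± 0.589%. The level of Kcnn4 relative to that of Kcnk2 was 0.289, 0.333 and 0.256 in the OM plus EMPA libraries and 0.818, 0.712 and 0.678 in the OM libraries. The level of Kcne4 relative to that of Kcna3 was 3.54, 3.11 and 3.03 in the OM plus EMPA libraries and 1.02, 0.761 and 0.702 in the OM libraries. In the OM group the Kcne4 level was thus near that of Kcna3 in replicate 1 and below it in replicates 2 and 3. In the OM plus EMPA group the Kcne4 transcripts were the more abundant in every library.

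**Figure D4:**
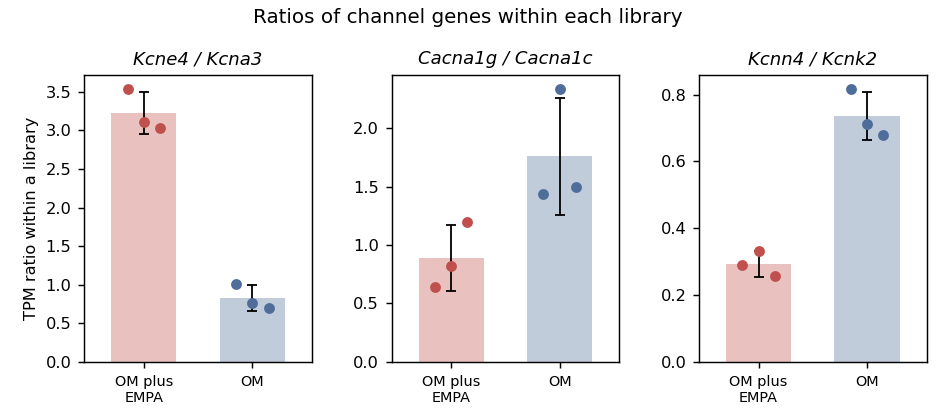
Ratio of the TPM of channel genes within each library (points), with the group mean (bar) and SD (error bar, n = 3), for Kcne4 over Kcna3, Cacna1g over Cacna1c and Kcnn4 over Kcnk2. The Kcne4 over Kcna3 ratio is 3.03 to 3.54 in the OM plus EMPA group and 0.702 to 1.02 in the OM group, and the other ratios are below those of the OM group in every OM plus EMPA library.

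Cacna1g, the gene of the low-voltage-activated T-type calcium channel Cav3.1, fell. It was measured at 4.46, 5.20 and 5.80 TPM in the OM plus EMPA libraries, against 7.84, 9.10 and 8.69 TPM in the OM libraries. The groups did not overlap. The means were 5.15 ± 0.671 TPM in the OM plus EMPA group vs. 8.54 ± 0.643 TPM in the OM group, and Cacna1g fell by 0.64 on the log2 scale (SE 0.11, 95% interval -0.88 to -0.39, limma adjusted p = 0.0152). The call was lost without OM plus EMPA replicate 2 (limma adjusted p = 0.0550) or OM replicate 3 (0.0577), and held without each of the other 4 libraries. Cacna1g lies at chr10:79355008-79423050 on the - strand. One of its ends overlaps an assembled locus with no gene name on the + strand, chr10:79342726-79356286, which was measured at 5.60, 8.84 and 3.63 TPM in the OM plus EMPA libraries and 4.02, 2.67 and 2.67 TPM in the OM libraries. That locus did not pass the test (log2 fold change 0.72, SE 0.26, limma adjusted p = 0.153), and since counting by strand is not stated, reads of the shared stretch cannot be told apart.

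Cacna1c encodes Cav1.2, the L-type channel that carries the calcium for contraction. It was measured at 6.93, 6.32 and 4.84 TPM in the OM plus EMPA libraries and 5.45, 3.89 and 5.81 TPM in the OM libraries. The groups overlapped, and the log2 fold change was 0.22 (95% interval -0.16 to 0.60, limma adjusted p = 0.455). The level of Cacna1g relative to that of Cacna1c was 0.644, 0.823 and 1.2 in the OM plus EMPA libraries and 1.44, 2.34 and 1.50 in the OM libraries. The pore genes of other calcium channels, Cacna1a, Cacna1b and Cacna1i, were under 1 TPM on average.

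None of the 3 tested auxiliary calcium channel subunits passed, and Cacnb3 and Cacna2d1 were at levels above those of the pore genes. Cacnb3, the main cytosolic β subunit here, averaged 38.6 ± 1.93 TPM vs. 36.5 ± 1.38 TPM (log2 fold change 0.08, 95% interval -0.05 to 0.21). Cacna2d1, an extracellular α2δ subunit, averaged 21.2 ± 1.48 TPM vs. 20.3 ± 3.04 TPM (interval -0.19 to 0.32), and Cacna2d2 averaged 9.22 ± 0.595 TPM vs. 8.59 ± 0.136 TPM (interval -0.08 to 0.26). Cacnb2, known as a partner of Cav1.2, averaged 0.390 ± 0.0700 TPM vs. 0.413 ± 0.0577 TPM and was not tested.

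Store-operated calcium entry rests on Orai and Stim genes, of which all 5 were tested and none passed. Orai1, the main pore, was measured at 23.98, 19.13 and 19.82 TPM in the OM plus EMPA libraries and 27.92, 25.35 and 23.30 TPM in the OM libraries. The highest OM plus EMPA value exceeded the lowest OM value, and the log2 fold change was -0.27 (SE 0.099, 95% interval -0.50 to -0.04, limma adjusted p = 0.148). Orai3 was measured at 9.25, 9.04 and 9.41 TPM against 11.02, 10.66 and 10.62 TPM. Its groups did not overlap, and the log2 fold change was -0.20 (SE 0.066, 95% interval -0.35 to -0.05, limma adjusted p = 0.116). Orai3 was read from an assembled locus at chr1:182344293-182386931, a longer stretch than those of Orai1 and Orai2. Whether that value holds reads of neighbouring genes was not tested. Orai2 was measured at 15.64, 13.73 and 15.84 TPM against 15.89, 17.86 and 16.16 TPM (95% interval -0.32 to 0.05). The sensor Stim1 averaged 23.3 ± 0.642 TPM vs. 23.2 ± 1.29 TPM (log2 fold change 0.01, 95% interval -0.13 to 0.15), and Stim2 averaged 18.0 ± 0.567 TPM vs. 19.0 ± 0.336 TPM (interval -0.20 to 0.05). The 3 Orai genes thus had negative fold changes beside a Stim1 value near 0. Negative values were common, in 8179 of all 12564 tested genes. Whether the Orai values differ from that of Stim1 was not tested.

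**Figure D5:**
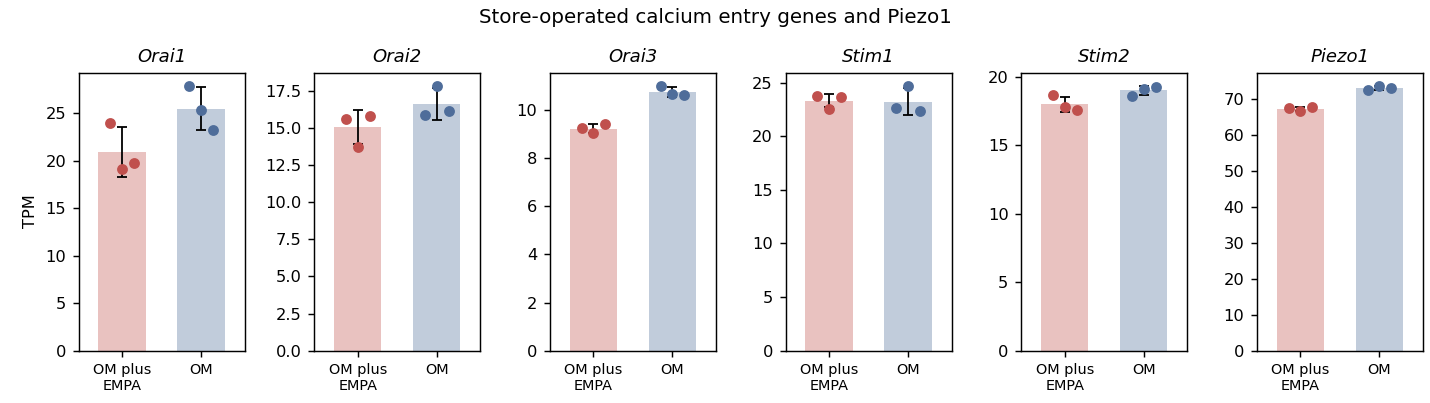
TPM of Orai1, Orai2, Orai3, Stim1, Stim2 and Piezo1 in each library (points), with the group mean (bar) and SD (error bar, n = 3), each panel with its own axis from 0. The groups of Orai2, Orai3 and Piezo1 do not overlap, those of Orai1, Stim1 and Stim2 do, and none of the 6 genes passed the test.

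Piezo1 encodes a channel opened by membrane tension and was among the most abundant channel genes. It was measured at 67.66, 66.57 and 67.69 TPM in the OM plus EMPA libraries and 72.57, 73.72 and 73.00 TPM in the OM libraries. The libraries of each group lay close together and the groups apart, but the difference was small (log2 fold change -0.12, SE 0.038, 95% interval -0.21 to -0.03, limma adjusted p = 0.114). After median-ratio scaling it was -0.06 (limma adjusted p = 0.412). Piezo2 was measured at 11.40, 17.77 and 16.87 TPM against 11.58, 16.86 and 14.86 TPM. Its libraries varied more within a group than between the groups, and the interval of the log2 fold change ran from -0.34 to 0.49.

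No TRP gene passed the test. Trpm7, a channel fused to a kinase that carries magnesium and calcium, averaged 39.8 ± 0.974 TPM vs. 39.9 ± 1.04 TPM (log2 fold change -0.01, 95% interval -0.11 to 0.10), a narrow interval around 0. Trpm4, a calcium-activated channel for monovalent cations, averaged 16.9 ± 0.920 TPM vs. 15.9 ± 1.66 TPM (interval -0.12 to 0.29). Trpm3, a calcium-permeable channel opened by heat and steroids, was measured at 2.42, 3.09 and 1.99 TPM in the OM plus EMPA libraries and 1.58, 1.93 and 1.80 TPM in the OM libraries. The groups did not overlap, and the log2 fold change was 0.33 (95% interval -0.01 to 0.67, limma adjusted p = 0.219). Trpv2 averaged 5.35 ± 0.765 TPM vs. 5.15 ± 1.03 TPM (interval -0.28 to 0.39). Trpc1, Trpc2 and Trpv4 were under the minimum for a test. Trpc4ap was measured at 86.89, 85.13 and 83.97 TPM against 90.41, 91.06 and 90.56 TPM, without overlap, and missed the threshold (log2 fold change -0.09, limma adjusted p = 0.209, and -0.03 after median-ratio scaling).

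The Clcn genes encode chloride channels and the chloride and proton exchangers of endosomes and lysosomes. All 6 analysed were tested and none passed. Clcn6, an exchanger of late endosomes, was measured at 17.82, 16.13 and 17.40 TPM in the OM plus EMPA libraries and 15.31, 15.87 and 14.57 TPM in the OM libraries. The groups did not overlap, and the log2 fold change was 0.16 (limma adjusted p = 0.2). Clcn4, another endosomal exchanger, was measured at 2.09, 1.78 and 1.93 TPM against 1.29, 1.42 and 1.59 TPM, also without overlap (log2 fold change 0.27, 95% interval -0.01 to 0.55). Clcn7, the lysosomal exchanger, averaged 43.1 ± 2.37 TPM vs. 43.9 ± 2.79 TPM (interval -0.17 to 0.12), and Clcn3 averaged 14.1 ± 0.992 TPM vs. 14.8 ± 0.338 TPM (interval -0.23 to 0.10).

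Among the anoctamins, Ano1 encodes TMEM16A, the calcium-activated chloride channel of vascular smooth muscle. It was measured at 1.42, 2.28 and 2.02 TPM in the OM plus EMPA libraries and 2.74, 2.81 and 3.93 TPM in the OM libraries. The groups did not overlap at this low level, and the log2 fold change was -0.52 (SE 0.17, 95% interval -0.90 to -0.13, limma adjusted p = 0.11). Ano6, a calcium-activated phospholipid scramblase, averaged 68.5 ± 3.65 TPM vs. 71.0 ± 1.86 TPM (interval -0.17 to 0.07), and Ano10 averaged 37.6 ± 0.844 TPM vs. 35.5 ± 2.09 TPM (interval -0.05 to 0.22). The intervals of these abundant anoctamins were narrower than that of Ano1.

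How large a difference could have been missed is given by the intervals. For 35 of the 47 tested channel genes the 95% interval lay within 1.5-fold in either direction on the log2(TPM + 1) scale, and for 16 it lay within 0.3 of 0 on that scale. For a gene near 1 TPM the same bound allows a larger fold of the TPM itself. Of 34 channel genes listed as known from vascular smooth muscle, 24 were analysed and 21 tested. Cacna1h, Kcnma1, Kcnmb1, Kcna5, Kcnk3, Trpc4 and Trpc6 were among those not analysed here.

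Pumps, exchangers, store channels and other transporters that share a membrane or a store with these channels were examined as a list of 124 partner genes, of which 73 were analysed and 65 tested. Slc12a2 and Calm2 rose, Atp2b1 and Fxyd5 fell, and 61 did not pass. These 4 of 65 stand beside 6.92% of all tested genes. None of the 26 tested genes of calcium stores and mitochondria passed. Slc12a2, the gene of the sodium, potassium and chloride cotransporter NKCC1 that loads smooth muscle cells with chloride, was measured at 32.34, 30.60 and 36.18 TPM in the OM plus EMPA libraries against 22.32, 23.20 and 25.97 TPM in the OM libraries. The groups stood apart, with a log2 fold change of 0.45 (SE 0.081, limma adjusted p = 0.0190). Without single libraries the limma adjusted p was 0.0294 without OM replicate 3 and 0.0385 without replicate 2 of the OM plus EMPA group. The call was lost without replicate 1 (limma adjusted p = 0.0533) or 3 (0.0521) of the OM plus EMPA group and without replicate 1 (0.0648) or 2 (0.0517) of the OM group.

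Atp2b1, the gene of the plasma membrane calcium pump PMCA1, was measured at 58.14, 62.52 and 62.34 TPM in the OM plus EMPA libraries against 70.92, 83.48 and 87.77 TPM in the OM libraries. No value overlapped, and Atp2b1 fell by 0.39 on the log2 scale (SE 0.079, limma adjusted p = 0.0291). Fxyd5, a regulator of the sodium and potassium pump, averaged 300.6 ± 21.3 TPM vs. 357.1 ± 9.10 TPM and fell by 0.25 (SE 0.057, limma adjusted p = 0.0419). Calm2, one of the calmodulin genes, averaged 617.4 ± 1.97 TPM vs. 555.3 ± 7.16 TPM and rose by 0.15 (SE 0.037, limma adjusted p = 0.0485). Each of these 3 calls depended on single libraries. Atp2b1 passed without OM replicate 1 alone (limma adjusted p = 0.0123) and was lost without each of the other 5 libraries (0.0664 to 0.0842), after median-ratio scaling (0.0589) and in limma without the trend of the variance (0.0665). Fxyd5 passed without OM plus EMPA replicate 3 alone (0.0431) and was lost without each of the other 5 (0.0837 to 0.121), after median-ratio scaling (0.0739), in TPM rescaled without mitochondrially encoded genes (0.0555) and without the trend (0.0961). The Calm2 call was lost without any 1 of the 6 libraries (limma adjusted p 0.0932 to 0.162), without a filter on low values (0.0513) and without the trend (0.123).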

How the data were processed

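RNA-seq values of 6 libraries were analysed, 3 of the OM plus EMPA group and 3 of the OM group. Libraries were prepared with a NEBNext Ultra kit. In the submitters' processing notes the tools are HISAT2 2.0.5, fastp, DESeq2 and RSEM, with no role for each, and the build was not given in the sources used here. The deposited table lists 13526 genes and, for each library, the TPM that the authors had estimated. The table also holds the authors' log2 fold change, p-value and FDR of each gene, which were not used. A second deposited table with a subset of these genes was not used. Names and coordinates are those of the table, in which 1637 genes have no symbol.

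TPM keep no record of depth, and their sums were alike in all libraries (997954 to 998293). With limma 3.58.1 in R 4.3.3, log2(TPM + 1) was fitted for the 12564 genes whose mean reached 1 TPM, with the group as the only term and a variance that follows the mean. The residual degrees of freedom were 4 and the prior ones 3.8. Benjamini-Hochberg adjustment ran over all tested genes, with a threshold of 0.05. The fit was tested on simulated normal values, independent between libraries and without an effect of the replicate number. Such a run checks the code of the fit, and whether these libraries meet that model was not tested. Other values were computed with Python 3.11.15, pandas 2.3.3 and numpy 2.4.6, and figures were drawn with matplotlib 3.10.9. Promoters came from RefSeq (GRCr8), matched by symbol.

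Channel genes are named where they passed the test, where they were among the 2 most abundant or the 2 with the smallest p of their role group, where they were among the 5 largest fold changes in each direction, or where they are listed as known from vascular smooth muscle. Kcne2, Kcnn1, Kcnt2, Orai2, Stim2, Cacna1a, Cacna1b and Cacna1i were added after their values were seen, and Ano8, Kcng4, Kcnk12 and Kcns3 because their fold change turned sign. Partners are named where they passed. Some genes that the rule or the marker lists take are not reported here. A partner symbol with 2 rows was read from the row of the higher mean. The channel genes, the lists and the rule were chosen with earlier results of these data known.

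Alternatives were no filter on low values, a pseudocount of 0.1, at least 1 TPM in each library, the replicate number as a block, median-ratio scaling, TPM rescaled without mitochondrially encoded genes, no trend, an adjusted p of 0.1, and each library left out in turn.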

Additional observations from a re-analysis of the deposited data

How the results depend on the processing

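Over the 47 tested channel genes, 561 of 608 alternative fold changes kept their direction and their side of the threshold. Kcnn4 and Kcne4 passed in every alternative run, and Cacna1g and Kcna3 in every one that kept all 6 libraries. The count of channel genes that rose was 1 throughout. The count that fell was 3, but 4 at an adjusted p of 0.1 (Kcnt1 added), and 1 to 3 when a library was left out, with 1 without OM replicate 3 or replicate 2 of the OM plus EMPA group. Over all genes, 259 rose and 611 fell; the counts were 460 and 1090 at an adjusted p of 0.1, 154 and 366 without the trend, 390 and 381 after median-ratio scaling, and 80 to 216 and 245 to 438 when a library was left out. Of the partners, 1 rose without the trend or without a filter and 0 to 1 when a library was left out; 5 fell at an adjusted p of 0.1, 1 in TPM rescaled without mitochondrially encoded genes, 0 without the trend or after median-ratio scaling, and 0 to 1 when a library was left out. The cause of these shifts was not tested.

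With the replicate block, 449 genes rose and 951 fell over all genes, 1 and 4 of the channel genes (Orai1 added, limma adjusted p = 0.0388), and 2 and 7 of the partners. Same-numbered libraries had correlations of 0.098, 0.162 and 0.058 of their deviations from the group means, and each library correlated best with its own number. The labels do not say whether same-numbered libraries share a source, so whether they are paired is not known.

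Genes whose fold change turned sign had values near 0 and did not pass under any setting. After median-ratio scaling Ano6 was at 0.0046, Ano8 at 0.0080, Clcn7 at 0.034, Kcns3 at 0.031 and Trpm7 at 0.052. In TPM rescaled without mitochondrially encoded genes Clcn7 was at 0.0046, Kcns3 at 0.013 and Trpm7 at 0.022, and with a pseudocount of 0.1 Kcns3 was at 0.0030. When a library was left out, the log2 fold change ran from -0.0191 to 0.0504 for Stim1, -0.0935 to 0.206 for Kcne2, -0.0252 to 0.0129 for Trpm7, -0.0656 to 0.262 for Piezo2, -0.061 to 0.0281 for Clcn7, -0.0243 to 0.0717 for Kcnk12, -0.13 to 0.0863 for Kcns3, -0.215 to 0.115 for Kcng4, -0.0338 to 0.184 for Trpv2, -0.0328 to 0.0554 for Kcnd1, -0.0257 to 0.202 for Kcnj16 and -0.059 to 0.142 for Cacna2d1. The depth is unknown, so no precision by counting can be given for the genes near 1 TPM, and 3 libraries a group limit every test.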

Other observations

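For 21 of 47 tested channel genes, or 44.7%, the mean of log2(TPM + 1) spanned more over the replicate numbers than between the groups. Over all tested genes the share was 58.3%. The span ran over 3 means of 2 libraries each, and the group difference lay between 2 means of 3 libraries each. Without any effect of number or group the span tends to be the larger, so neither share measures an effect of the replicate number. Kcnj2, Kcne2 and Piezo2 are given as examples. Kcnj2 was at 9.59, 6.13 and 7.83 TPM in OM plus EMPA replicates 1, 2 and 3 and at 7.97, 5.22 and 7.0 TPM in OM replicates 1, 2 and 3. Kcne2 was at 5.12, 3.57 and 3.60 TPM in the OM plus EMPA libraries and 5.11, 3.23 and 3.53 TPM in the OM libraries. Piezo2 was at 11.40, 17.77 and 16.87 TPM in the OM plus EMPA libraries and 11.58, 16.86 and 14.86 TPM in the OM libraries. The span over the replicate numbers was 0.55 for Kcnj2, 0.48 for Kcne2 and 0.55 for Piezo2, against group log2 fold changes of 0.19, 0.05 and 0.07. These genes were picked after their values were seen, and what the numbers share is not stated.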
